A study of Arabidopsis thaliana with 6 samples.

Results

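The 8 genes described here are *FAD2* (AT3G12120), *FAD3* (AT2G29980), *LPCAT1* (AT1G12640), *LPCAT2* (AT1G63050), *KCS18* (also called *FAE1*, AT4G34520), *KCR1* (AT1G67730), *PAS2* (AT5G10480) and *CER10* (AT3G55360). These members were chosen by name, for their place in the ER steps of fatty acid (FA) metabolism, out of 24509 transcripts with at least 1 read. Earlier results of these data were known when they were chosen. The libraries came from *Arabidopsis thaliana* embryos of the Col-0 ecotype dissected from seeds 8 d after pollination, with 25 to 30 embryos in a library. The tested genotype was homozygous *atwri1-1* (genotype label wrinkled1-1), a mutant of the seed oil regulator *WRINKLED1* (*WRI1*), with 3 biological replicates, and the other was wild type (WT), with 3 biological replicates. The mutation was present in the whole plant, so the seed coat and endosperm around the embryos carried it as well.

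In oilseed embryos, FAs are made in the plastid, exported and joined to CoA at the ER. Lysophosphatidylcholine acyltransferases (LPCAT1 and LPCAT2) exchange acyl chains between the CoA pool and phosphatidylcholine (PC), a cycle known as acyl editing. While a chain is on PC, FAD2 turns oleate into linoleate and FAD3 turns linoleate into linolenate, with electrons delivered by cytochrome b5. Chains on CoA can instead be lengthened by the FA elongase, in which a 3-ketoacyl-CoA synthase (KCS) condenses, KCR1 reduces the keto group, PAS2 removes water and CER10 reduces the remaining double bond. KCS18 is the seed KCS whose product eicosenoate is typical of *Arabidopsis* seed oil, whereas KCR1, PAS2 and CER10 also serve wax and sphingolipid synthesis throughout the plant.

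Transcripts received 10219165, 18933870 and 8510887 reads in the *atwri1-1*-labelled libraries and 14449130, 11566131 and 12033566 in WT. Levels are given as CPM, the counts of a gene per 1000000 tested reads after TMM scaling, and 3 counts corresponded to 0.148 to 0.338 CPM, a limit that covers counting error only. *WRI1* mRNA itself was higher in the *atwri1-1*-labelled libraries (1256, 1100 and 1042 CPM, against 186, 148 and 166 in WT). The reason for this was not tested, and every direction below follows the labels. WT replicate 1 stood apart from the other WT libraries, with a chi-square per degree of freedom of 88.7 and 78.4 against them, compared with 6.95 between WT replicates 2 and 3. Results of members that rest on WT replicate 1 are given with and without it, as are those of *ROD1*, *CB5-E*, *KCR2* and *L1L*. All 9 embryo markers were tested, with summed levels of 5273 to 8821 CPM in the *atwri1-1*-labelled libraries and 4599 to 7007 CPM in WT, and 1 was called. This was *LEC2*, an embryo regulator, which was higher, with 24.6, 22.7 and 19.7 CPM in the *atwri1-1*-labelled libraries, against 8.95, 12.0 and 11.8 CPM in WT (log2 fold change 1.03, adjusted p = 0.0129, edgeR). It lost its call without *atwri1-1* replicate 1, *atwri1-1* replicate 2 or WT replicate 1. The seed storage proteins differed widely between libraries of a genotype. *CRC* had 0.823, 11.9 and 135 CPM in the *atwri1-1*-labelled libraries, against 115, 120.1 and 299 CPM in WT. *CRA1* ranged from 249 to 2270 CPM and *SESA3* from 322 to 822 CPM in the *atwri1-1*-labelled libraries. These 3 had negative log2 fold changes and the other 6 embryo markers positive ones. The oil body genes *OLEO1* and *OLEO2* had means of 2797 and 1178 CPM, against 1719 and 701 CPM in WT. Neither was called (log2 fold changes 0.70 and 0.75, adjusted p = 0.0937 and 0.0451, edgeR). Of 6 tested endosperm markers, *SUC5* was called lower and *AGL62* and *FWA* higher. Log2 fold changes were negative for 2 of the 6, *SUC5* and *EPR1*, and positive for 4, with a median of 0.71. The summed levels of the list were 73.2 to 233 CPM in the *atwri1-1*-labelled libraries and 205 to 418 CPM in WT. *EPR1* and *SUC5* were its most abundant genes, with means of 102 and 24.1 CPM, against 155 and 114 CPM in WT. *ZOU* was higher without overlap between genotypes but was not called (log2 fold change 1.31, adjusted p = 0.112, edgeR). *PHE1* was at 0 in all *atwri1-1*-labelled libraries and in WT replicates 1 and 2. *AGL62* and *FWA* had 3 to 8 counts in each WT library, and they were called in 6 and 9 of the 15 settings of filter, scaling, test, block and omitted library, *AGL62* in none that left out a library. *SUC5* was called in 13 of the 15. None of 6 tested seed coat markers was called, and their sums were 404 to 613 CPM in the *atwri1-1*-labelled libraries and 394 to 477 CPM in WT. The part of these tissues in the results was not tested.

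All 8 members had at least 90 counts in every library and passed the filter on low counts that left 18241 genes for testing. In TAIR10.1, the reference release used here for positions, *FAD2* occupies chr3:3860251-3863250, *FAD3* chr2:12781524-12785190, *LPCAT1* chr1:4303280-4305907, *LPCAT2* chr1:23375877-23378355, *PAS2* chr5:3297804-3300165 and *CER10* chr3:20520930-20523098, all on the minus strand. *KCS18*, a single-exon gene, occupies chr4:16494205-16495842 and *KCR1* chr1:25391338-25393889, both on the plus strand. Between 99.4% and 100% of the 31-base stretches of each counted transcript occurred in no other transcript, so few reads of these genes would have been dropped for mapping to more than 1 place. The counting did not use strand, and opposite-strand neighbouring genes overlap the exons of *LPCAT1* by 117 bases and of *CER10* by 27 bases. There a read that matched both counted transcripts would have been dropped. A neighbour's read that matched only the member would have been counted for the member.

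Because WRI1 is known to bind the AW Box (CNTNGNNNNNNNCG, N being any base), the 500 bases on each side of the 5′ end of each counted transcript were searched for it on both strands, together with the CNC Box (CNCCNCC). An AW Box was found downstream of the start in 7 of the 8 members, all but *LPCAT1*, against 40.0% of 27443 protein-coding genes. Upstream, only *CER10* had one, against 18.3% of genes. A CNC Box lay downstream in 6 of the 8, all but *LPCAT2* and *CER10*, against 48.2% of genes, and upstream in *FAD2* and *PAS2*, against 20.7%. With 250 bases on each side the downstream counts were 4 for the AW Box and 3 for the CNC Box, against 21.2% and 29.1% of genes, and both upstream counts were 0. The annotated transcript of *KCS18* begins at its start codon, so its window lies wholly in the coding sequence. A match is a description of letters, not of binding. The downstream AW Boxes of *PAS2* and *LPCAT2*, the genes that fell most, and of *KCR1* and *KCS18*, which were not called, are shown because the letters were present in both kinds of gene. Each is written 5′ to 3′ on the strand of the motif, with the AW Box in capitals and 8 flanking bases on each side.
LPCAT2, chr1:23378314-23378327, sense, 5′ UTR: cacacaaaCCTCGTCAAGATCGaaaccaaa
LPCAT2, chr1:23378228-23378241, sense, 5′ UTR: gtgagagtCGTCGTCGTCGTCGtaactcag
PAS2, chr5:3300018-3300031, sense, coding exon: tttctctcCGTTGTCCGGCGCGtgtacctc
PAS2, chr5:3299838-3299851, sense, coding exon: gataacgaCGTTGAAGGAAACGggttatga
PAS2, chr5:3299768-3299781, antisense, across an exon border: gagacggaCCTCGAGAACGGCGgcagtctg
KCR1, chr1:25391566-25391579, sense, 5′ UTR: ctatccacCTTCGTCCCTTCCGccccaaaa
KCS18, chr4:16494598-16494611, antisense, coding exon: tctcatcaCCTAGACCTGAACGctcttgaa
The first *LPCAT2* site begins 28 bases and the second 114 bases after the first base of the transcript, and the *PAS2* sites begin 120, 300 and 370 bases after it. The *KCR1* site begins 228 bases and the *KCS18* site 393 bases after it. None of these AW Boxes overlaps a CNC Box, whereas the AW Box of *FAD3* does.

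**Figure D1:**
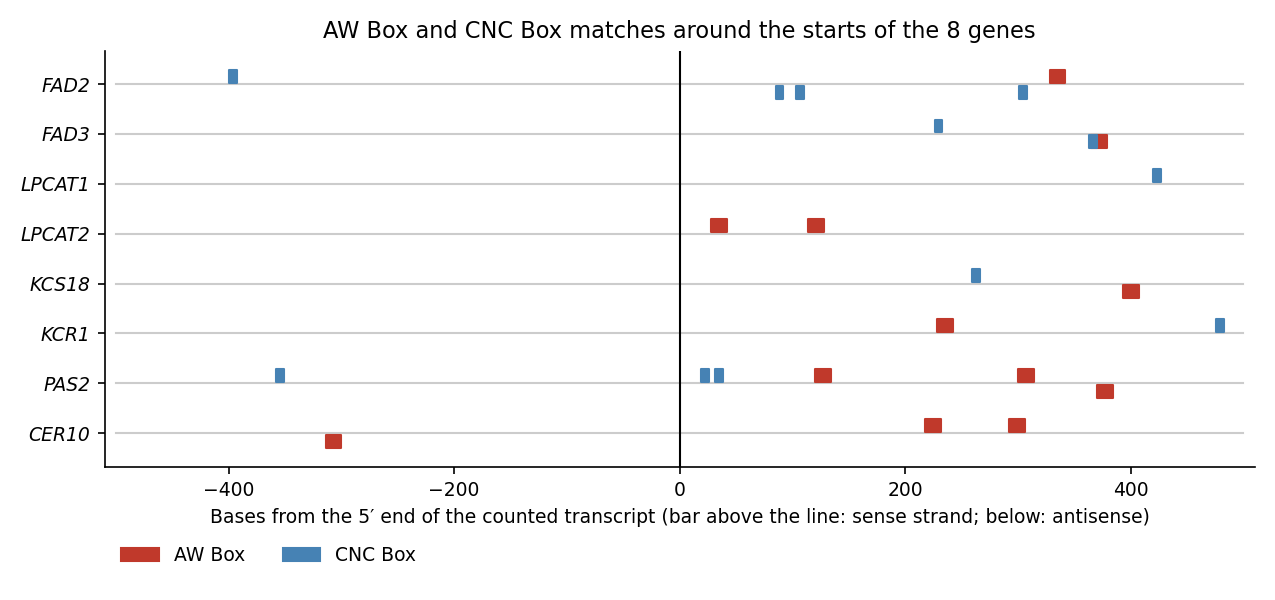
Positions of AW Box and CNC Box matches for the 8 genes, in bases from the 5′ end of the counted transcript, with sense-strand matches drawn above each line and antisense ones below. Most matches lie to the right of 0: 7 genes have an AW Box downstream and *CER10* alone has one upstream.

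*PAS2* and *LPCAT2* mRNAs fell to 23.6% and 26.9% of the WT mean in the *atwri1-1*-labelled libraries, and no member was called higher. *FAD2* fell by less than the fold minimum, and *CER10* lay at the edge of the test. *FAD3*, *LPCAT1*, *KCR1* and *KCS18* did not pass it. A gene was called when edgeR's quasi-likelihood test gave an adjusted p (Benjamini-Hochberg over all 18241 genes) of at most 0.05 and the log2 fold change lay beyond 1 in either direction. By this rule 2 of 8 members were lower, against 5.31% of all tested genes, and 0 were higher, against 1.08%. No member was higher at an unadjusted p under 0.05 in this test, nor by edgeR's exact test, DESeq2 or limma-voom, whereas *KCS18* was higher at an unadjusted p of 0.0339 with scaling by library size only and of 0.0139 without WT replicate 1 (edgeR). Without the fold minimum 3 of 8 were lower, against 7.51% of all tested genes, and 0 were higher, against 2.66%. All 3 *atwri1-1*-labelled libraries lay below all 3 WT libraries for 6 of 8 members, as they did for 18.9% of all tested genes. The median log2 fold change of the 8 members was -0.59, beside -0.01 for all tested genes. In whole embryos, fewer cells of one type and less RNA per cell cannot be told apart.

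**Figure D2:**
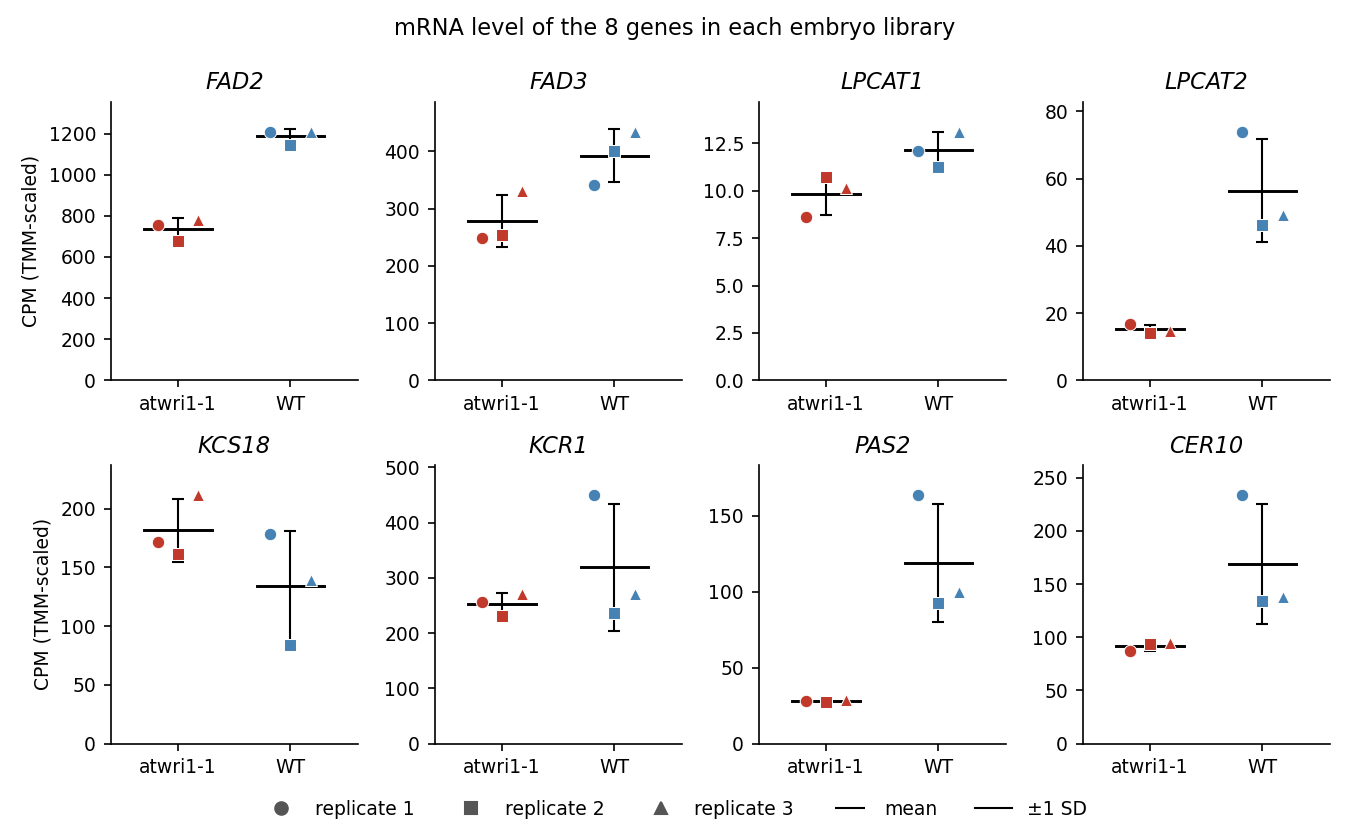
TMM-scaled CPM of the 8 genes in each library, with *atwri1-1*-labelled libraries (red) left of WT (blue); marker shapes give the replicate number, wide bars the mean and whiskers 1 SD (n = 3). *PAS2* and *LPCAT2* are separated most, with means of 28.1 and 15.2 CPM in the *atwri1-1*-labelled libraries against 119 and 56.4 CPM in WT, and *KCS18* and *KCR1* overlap.

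Of the desaturases, *FAD2*, which makes linoleate on PC and was the most abundant member per kilobase of transcript, had 753, 679 and 780 CPM in the *atwri1-1*-labelled libraries, against 1209, 1144 and 1207 CPM in WT. The groups did not overlap, and replicates of a genotype lay close together. Its mean was 737 ± 52.3 CPM in the *atwri1-1*-labelled libraries and 1187 ± 37.2 CPM in WT (SD, n = 3 each), or 62.1% of WT. The log2 fold change of *FAD2* was -0.69 (standard error 0.132, adjusted p = 0.0189, edgeR), past the p threshold and short of the fold minimum. Its adjusted p was between 0.0775 and 0.113 in the fits without WT replicate 3 or without any single *atwri1-1*-labelled library.

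*FAD3*, which makes linolenate from the FAD2 product, had 248, 255 and 330.0 CPM in the *atwri1-1*-labelled libraries, against 342, 400.3 and 434 CPM in WT. The highest *atwri1-1*-labelled library and the lowest WT library nearly met. Its log2 fold change was -0.50 (standard error 0.168, adjusted p = 0.116, edgeR), and without WT replicate 1 it was -0.59 with an adjusted p of 0.0177. The ratio of *FAD3* to *FAD2* counts within a library, which does not depend on scaling, was 0.330, 0.375 and 0.423 in the *atwri1-1*-labelled libraries and 0.283, 0.350 and 0.360 in WT. These values overlapped between genotypes (log2 difference 0.19, exact permutation p = 0.4, two-sided). Between libraries of the same replicate number the ratio was higher in the *atwri1-1*-labelled library in 3 of 3 pairs, by 0.22, 0.10 and 0.23 on the log2 scale (exact permutation p = 0.25 within pairs, two-sided, the smallest that 3 pairs allow).

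Among 8 seed regulators, chosen with earlier results known, 2 were called lower and 2 higher (*WRI1* and *LEC2*), with a median log2 fold change of 0.33. The lower ones are known to act on *FAD3*. *bZIP67*, a bZIP factor that binds the *FAD3* promoter, had 0.823, 0.296 and 1.13 CPM in the *atwri1-1*-labelled libraries, against 83.4, 62.3 and 61.5 CPM in WT (log2 fold change -6.68, standard error 0.394, adjusted p = 2.3e-04, edgeR). *L1L*, an NF-Y subunit that works with it, had 23.2, 14.9 and 30.4 CPM in the *atwri1-1*-labelled libraries, against 436, 242 and 254 CPM in WT (log2 fold change -3.77, adjusted p = 0.0013, edgeR), with 83.0% of its 31-base stretches found in no other transcript. Without WT replicate 1 the log2 fold change of *L1L* was -3.48. *NF-YC2*, another NF-Y subunit that works with them, was not called (log2 fold change 0.35, adjusted p = 0.510, edgeR), and only 3.05% of its 31-base stretches occur in no other transcript. *FAD3* was at 70.8% of its WT mean.

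Of the acyltransferases of acyl editing, *LPCAT2* was called lower and *LPCAT1* was not. *LPCAT2* had 16.6, 14.2 and 14.7 CPM in the *atwri1-1*-labelled libraries, against 73.9, 46.1 and 49.1 CPM in WT. No library of one genotype came near the other, although WT replicate 1 was 1.55 times the mean of the other WT libraries. The mean was 15.2 ± 1.30 CPM in the *atwri1-1*-labelled libraries and 56.4 ± 15.3 CPM in WT (SD, n = 3 each), or 26.9% of WT, and the log2 fold change was -1.89 (standard error 0.213, adjusted p = 0.0024, edgeR). It was called lower under each of the 15 settings tried, and without WT replicate 1 its log2 fold change was -1.66.

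*LPCAT1*, which catalyses the same exchange, was the least abundant member per kilobase, with 8.60, 10.7 and 10.1 CPM in the *atwri1-1*-labelled libraries, against 12.1, 11.2 and 13.1 CPM in WT. The groups lay next to each other without overlap, and the difference did not pass the test (log2 fold change -0.30, standard error 0.174, adjusted p = 0.327, edgeR). The count ratio of *LPCAT2* to *LPCAT1* was 1.94, 1.32 and 1.44 in the *atwri1-1*-labelled libraries and 6.11, 4.10 and 3.74 in WT. It was lower in 3 of 3 *atwri1-1*-labelled libraries than in any WT library, a log2 difference of -1.56 (exact permutation p = 0.1, two-sided, the smallest that 3 against 3 libraries allow, and 0.12 after Benjamini-Hochberg adjustment over the 6 ratios computed).

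**Figure D3:**
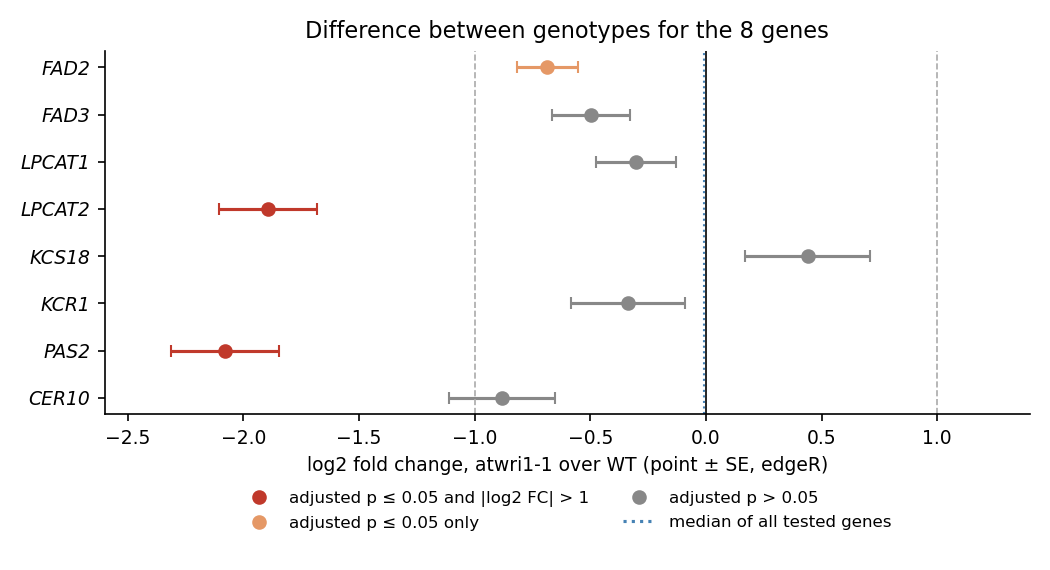
Log2 fold change of each of the 8 genes between *atwri1-1*-labelled libraries and WT, with bars of 1 standard error; dashed lines mark the fold minimum and the dotted line the median of all tested genes. *PAS2* (-2.08) and *LPCAT2* (-1.89) lie beyond the dashed line, and *KCS18* alone lies to the right of 0.

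Within the elongase, *PAS2* was called lower, whereas *KCS18*, *KCR1* and *CER10* were not called. *KCS18*, the seed KCS, had 172, 161 and 212 CPM in the *atwri1-1*-labelled libraries, against 178, 84.2 and 139 CPM in WT. The groups overlapped, and the lowest and second lowest values were those of WT replicates 2 and 3. Its mean was 182 ± 26.6 CPM in the *atwri1-1*-labelled libraries and 134 ± 47.2 CPM in WT (SD, n = 3 each), and the log2 fold change was 0.44 (standard error 0.269, adjusted p = 0.359, edgeR). Between libraries of the same replicate number the log2 difference was -0.05, 0.94 and 0.60 for replicates 1, 2 and 3. Its adjusted p was lowest, at 0.0602 with a log2 fold change of 0.69, without WT replicate 1, and it was above 0.05 in each of the 15 settings. Without WT replicate 2 the log2 fold change was 0.19.

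*KCR1*, the ketoacyl reductase, had 256, 232 and 270.1 CPM in the *atwri1-1*-labelled libraries, against 450, 237 and 270.2 CPM in WT. Apart from WT replicate 1, the genotypes had nearly the same values. The log2 fold change of *KCR1* was -0.34 (standard error 0.246, adjusted p = 0.442, edgeR), and without WT replicate 1 it was -0.01 with a standard error of 0.0995.

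*PAS2*, the dehydratase, had 27.8, 27.7 and 28.9 CPM in the *atwri1-1*-labelled libraries, against 164, 92.9 and 99.98 CPM in WT. The coefficient of variation was 2.33% over the *atwri1-1*-labelled libraries, below the counting error expected from their 304, 561 and 256 counts. It is therefore no measure of biological spread. The lowest WT library was above all *atwri1-1*-labelled libraries. The mean was 28.1 ± 0.656 CPM in the *atwri1-1*-labelled libraries and 119 ± 39.0 CPM in WT (SD, n = 3 each), or 23.6% of WT, and the log2 fold change was -2.08 (standard error 0.233, adjusted p = 0.0024, edgeR). *PAS2* was called lower under each of the 15 settings, and without WT replicate 1 its log2 fold change was -1.78.

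*CER10*, the enoyl reductase that ends each round, had 86.7, 93.6 and 94.6 CPM in the *atwri1-1*-labelled libraries, against 234, 134 and 138 CPM in WT. The groups did not overlap, and WT replicate 1 was again the highest. At 54.3% of the WT mean, its log2 fold change was -0.88 (standard error 0.229, adjusted p = 0.0544, edgeR), just outside the threshold. Without WT replicate 1 the log2 fold change was -0.58 and the adjusted p was 0.0023, and without WT replicate 2 it was -1.02 with an adjusted p of 0.0490, the only setting in which *CER10* was called. Its adjusted p was at most 0.05 in 5 of the 15 settings.

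WT replicate 1 was high for one set of members and not for the others. *KCR1*, *CER10*, *PAS2*, *KCS18* and *LPCAT2* were 1.77, 1.72, 1.70, 1.59 and 1.55 times their mean in WT replicates 2 and 3. *FAD2*, *LPCAT1* and *FAD3* were 1.03, 0.994 and 0.820 times theirs. The coefficient of variation in WT was therefore between 27.1% and 35.9% for the first 5 members and between 3.13% and 11.9% for the last 3. Of the 6 tested endosperm markers, *EPR1* and *FWA* were higher in this library, at 5.66 and 1.29 times their mean in WT replicates 2 and 3, and the other 4 were lower, at 0.424 to 0.822 times theirs. The part of endosperm in these values was not tested. Without WT replicate 1, 5 of the 8 members were lower at an adjusted p of at most 0.05 with no fold minimum, against 12.9% of all tested genes in that fit, namely *FAD2*, *FAD3*, *LPCAT2*, *PAS2* and *CER10*, and the calls with the fold minimum were again *LPCAT2* and *PAS2*, against 5.82% of all tested genes.

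Ratios within a library set the elongase enzymes against each other in a way that does not depend on scaling. The count ratio of *PAS2* to *KCR1* was 0.109, 0.119 and 0.107 in the *atwri1-1*-labelled libraries and 0.364, 0.391 and 0.370 in WT. WT replicate 1 lay close to the other WT libraries, and the genotypes differed by -1.75 on the log2 scale with SDs of 0.0861 in the *atwri1-1*-labelled libraries and 0.0548 in WT. The ratio of *CER10* to *KCR1* was 0.339, 0.404 and 0.350 in the *atwri1-1*-labelled libraries and 0.520, 0.566 and 0.511 in WT, a log2 difference of -0.55. The ratio of *KCS18* to *KCR1* went the other way, with 0.672, 0.695 and 0.783 in the *atwri1-1*-labelled libraries and 0.396, 0.355 and 0.515 in WT, a log2 difference of 0.78. The ratio of *KCS18* to *FAD2*, which act on oleoyl-CoA and on oleate in PC, was 0.228, 0.237 and 0.271 in the *atwri1-1*-labelled libraries and 0.147, 0.0736 and 0.115 in WT, a log2 difference of 1.19. For each of these 4 ratios the genotypes did not overlap, and each had an exact permutation p of 0.1 (two-sided), the smallest possible with 3 against 3, and 0.12 after adjustment over the 6 ratios.

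**Figure D4:**
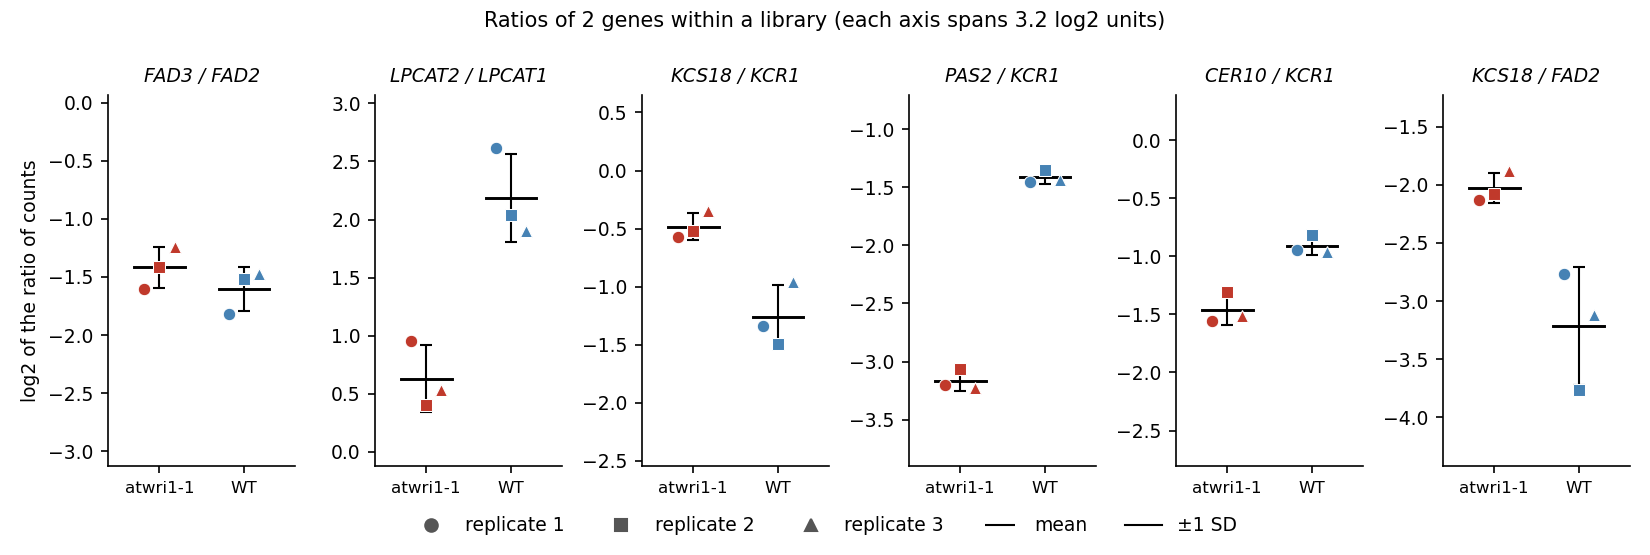
Log2 ratio of the counts of 2 genes in the same library, with *atwri1-1*-labelled libraries (red) left of WT (blue), wide bars for means and whiskers for 1 SD (n = 3); all panels span 3.2 log2 units. *PAS2* over *KCR1* has the tightest groups, with means of -3.16 in the *atwri1-1*-labelled libraries and -1.42 in WT, and *FAD3* over *FAD2* is the only ratio that overlaps.

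Levels of different genes were compared as CPM per kilobase of the counted transcript. In the *atwri1-1*-labelled libraries the order was *FAD2* (394 ± 28.0 CPM per kb, SD, n = 3), *FAD3* (166 ± 27.3), *KCR1* (139 ± 10.7), *KCS18* (111 ± 16.2), *CER10* (64.0 ± 3.01), *PAS2* (27.1 ± 0.632), *LPCAT2* (8.62 ± 0.739) and *LPCAT1* (5.08 ± 0.574). In WT it was *FAD2* (635 ± 19.9 CPM per kb), *FAD3* (235 ± 28.0), *KCR1* (175 ± 62.9), *CER10* (118 ± 39.4), *PAS2* (115 ± 37.7), *KCS18* (81.7 ± 28.8), *LPCAT2* (32.0 ± 8.68) and *LPCAT1* (6.27 ± 0.486). *KCS18* thus stood above both *CER10* and *PAS2* per kilobase in the *atwri1-1*-labelled libraries, and its WT values overlapped theirs. The WT values of *FAD3* and *KCR1*, of *KCR1* and *CER10* and of *CER10* and *PAS2* overlapped, as did those of *KCR1* and *KCS18* in the *atwri1-1*-labelled libraries. *CER10* and *PAS2* were about level in WT and separated in the *atwri1-1*-labelled libraries, where their values did not overlap.

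Genes working beside the members were taken from 5 lists of 51 genes, of which 48 were tested. Of these, 7 were called lower and 1 higher, with a median log2 fold change of -0.16, beside 5.31% lower and 1.08% higher over all tested genes. Without the fold minimum 10 were lower and 4 higher, beside 7.51% and 2.66% of all tested genes. Past the p threshold but short of the fold minimum, *FAD5*, *KCS6* and *LPEAT2* were lower (log2 fold changes -0.98, -0.86 and -0.61). *CER2*, *KCS1* and *KCS10* were higher by the same measure (log2 fold changes 0.98, 0.88 and 0.49). *CER2* was called in 2 of the 15 settings, and *FAD5* and *KCS1* in 1 each. Among 6 genes that deliver electrons through cytochrome b5, which FAD2 and FAD3 draw on, 5 were tested and 2 were called lower. *CBR1*, the NADH-dependent reductase of cytochrome b5, had 167, 162 and 158 CPM in the *atwri1-1*-labelled libraries, against 510.3, 376 and 411 CPM in WT (log2 fold change -1.41, standard error 0.154, adjusted p = 0.0021, edgeR). *CB5-E*, a cytochrome b5, had 95.1, 93.9 and 87.5 CPM in the *atwri1-1*-labelled libraries, against 334, 190.2 and 199 CPM in WT (log2 fold change -1.39, standard error 0.232, adjusted p = 0.0111, edgeR). Without WT replicate 1 the log2 fold change of *CB5-E* was -1.08, close to the fold minimum, with an adjusted p of 1.2e-04 (edgeR). *CB5-E* lost its call without any one *atwri1-1*-labelled library, with adjusted p between 0.0608 and 0.0683, and an annotated gene overlaps it. The log2 fold changes of *CBR1* and *CB5-E* were larger than that of *FAD2* (-0.69), a difference between genes that was not tested.

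None of 9 other membrane desaturases was called, and their median log2 fold change was -0.22. Those nearest to the thresholds, named after their values were seen, were *SLD2* and *FAD5*. *SLD2*, a sphingolipid desaturase, had 13.7, 7.74 and 9.81 CPM in the *atwri1-1*-labelled libraries, against 48.6, 18.3 and 24.3 CPM in WT (log2 fold change -1.55, adjusted p = 0.0509, edgeR). It was called lower in 6 of the 15 settings, the replicate block among them (log2 fold change -1.46, adjusted p = 0.0099, edgeR), but only 12.8% of its 31-base stretches occur in no other transcript. *FAD5*, a plastid palmitate desaturase, had 17.4, 15.3 and 13.4 CPM in the *atwri1-1*-labelled libraries, against 41.8, 26.4 and 22.9 CPM in WT (log2 fold change -0.98, adjusted p = 0.0495, edgeR), past the p threshold and short of the fold minimum. The plastid enzyme *FAD6*, which desaturates oleate on plastid lipids as FAD2 does on PC, had 109, 115 and 110.5 CPM in the *atwri1-1*-labelled libraries, against 102, 122 and 122 CPM in WT (log2 fold change -0.05, adjusted p = 0.850, edgeR). *FAD7* and *FAD8*, the plastid counterparts of FAD3, had log2 fold changes of -0.11 and -0.22 with adjusted p of 0.715 and 0.467 (edgeR). The values of *FAD6* and *FAD7* turned to 0.12 and 0.06 when libraries were scaled by size only.

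In the list named for other acyl exchange at PC, which also holds genes of neighbouring steps such as acyl-CoA synthetases, 2 of 11 genes were called lower and none higher. *ROD1*, which moves the phosphocholine headgroup between PC and diacylglycerol and so releases edited chains for oil, had 14.3, 17.7 and 20.7 CPM in the *atwri1-1*-labelled libraries, against 249, 117 and 116 CPM in WT. This was a wider gap than that of any member, at 10.9% of the WT mean (log2 fold change -3.19, standard error 0.350, adjusted p = 0.0021, edgeR). Without WT replicate 1 the log2 fold change of *ROD1* was -2.74, beside -1.78 for *PAS2*. *LACS9*, a long-chain acyl-CoA synthetase of the plastid envelope, had 317, 304 and 306 CPM in the *atwri1-1*-labelled libraries, against 576, 921 and 957 CPM in WT (log2 fold change -1.40, standard error 0.210, adjusted p = 0.0073, edgeR). WT replicate 1 was its lowest WT library, whereas that library was the highest WT library for the members *LPCAT2*, *KCS18*, *KCR1*, *PAS2*, *CER10* and, narrowly, *FAD2*. Without replicate 2 or 3 of *atwri1-1* the adjusted p of *LACS9* was 0.0511 and 0.0512 (edgeR).

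Of 20 other KCS genes, 18 were tested, 2 were called lower and 1 higher, with a median log2 fold change of 0.14. *KCS11* had 13.1, 15.8 and 14.8 CPM in the *atwri1-1*-labelled libraries, against 52.3, 66.0 and 67.9 CPM in WT (log2 fold change -2.09, standard error 0.161, adjusted p = 5.0e-04, edgeR). *KCS5*, named after its value was seen because its mean was under 10 CPM, was the other lower gene (log2 fold change -1.65, adjusted p = 0.0070, edgeR). *KCS2* was called higher, with 39.4, 39.5 and 34.4 CPM in the *atwri1-1*-labelled libraries and 16.6, 11.9 and 12.1 CPM in WT, but only 38.6% of its 31-base stretches occur in no other transcript. *KCS17*, the KCS gene with the locus number just before that of *KCS18* on chromosome 4, had 5.58, 4.68 and 4.85 CPM in the *atwri1-1*-labelled libraries, against 5.03, 4.07 and 4.23 CPM in WT (log2 fold change 0.18, adjusted p = 0.675, edgeR).

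Among 5 other elongase components, *KCR2*, the homolog of *KCR1*, was called lower. It had 3.75, 2.47 and 4.40 CPM in the *atwri1-1*-labelled libraries, against 31.5, 12.7 and 13.4 CPM in WT (log2 fold change -2.47, standard error 0.430, adjusted p = 0.0129, edgeR). Its adjusted p was between 0.0526 and 0.0699 without any one *atwri1-1*-labelled library, and annotated genes overlap it. Without WT replicate 1 the log2 fold change of *KCR2* was -1.92. *PTPLA*, a homolog of *PAS2*, had 24.8, 19.0 and 15.1 CPM in the *atwri1-1*-labelled libraries, against 24.7, 23.7 and 23.2 CPM in WT, values that overlapped (log2 fold change -0.28, adjusted p = 0.421, edgeR).

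**Figure D5:**
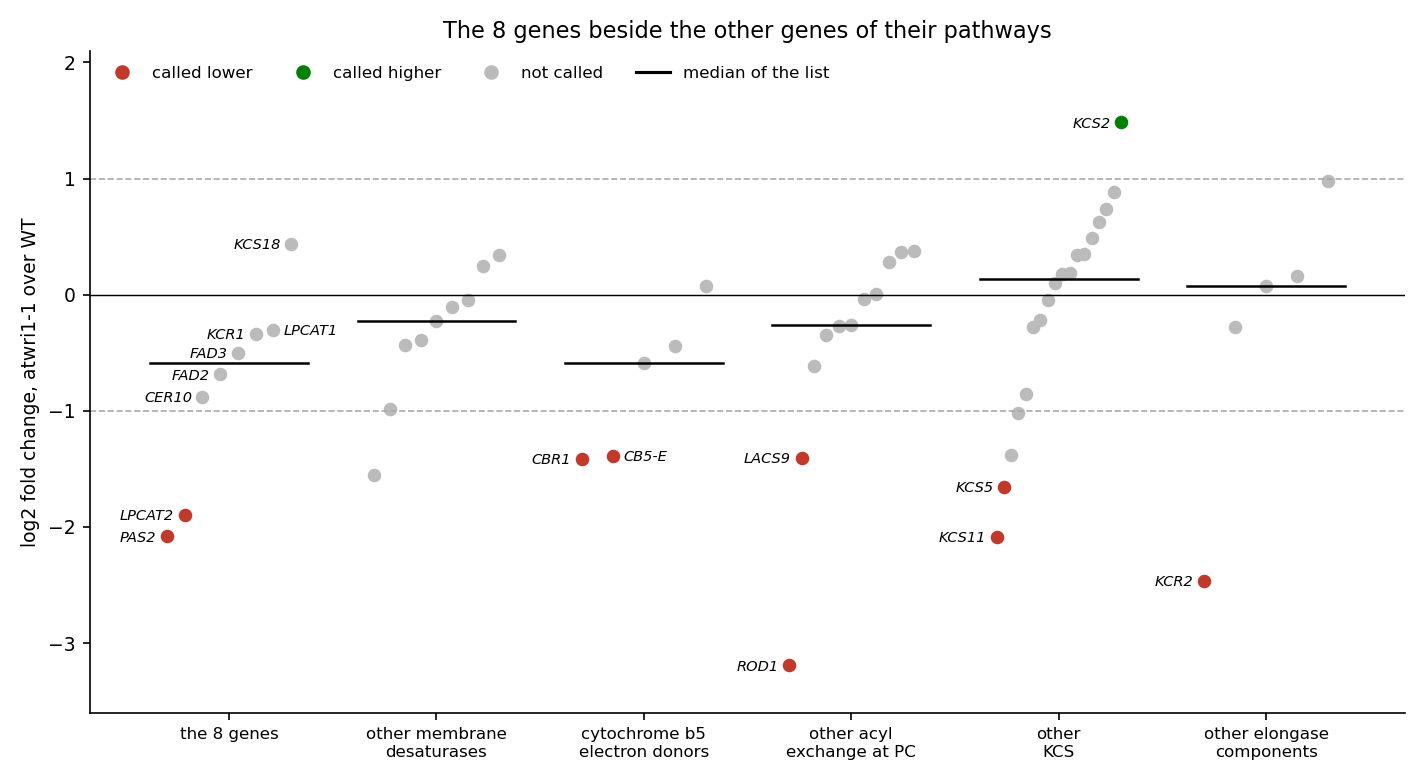
Log2 fold change between *atwri1-1*-labelled libraries and WT for the 8 genes and 5 lists of genes of the same pathways, with each tested gene as a point, lists in columns and their medians as black bars; dashed lines mark the fold minimum. Genes called lower (red) are spread over 5 of the 6 columns, with *ROD1* lowest at -3.19, and *KCS2* (green) is the gene called higher.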

How the data were processed

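RNA-Seq was performed on 3 *atwri1-1*-labelled libraries and 3 WT libraries of embryos 8 d after pollination. The authors trimmed reads, discarded those from rRNA, aligned what was left to the primary transcripts of TAIR10 with Bowtie 0.12.7 (2 mismatches allowed, multiply mapping reads dropped) and deposited raw counts per transcript. A table of edgeR 3.10.5 normalized values was also deposited and was not used. A row that names no transcript held 39.6% to 86.6% of counts in the *atwri1-1*-labelled libraries and 44.6% to 45.0% in WT, and was left out.

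Counts were scaled by TMM and tested in edgeR 4.0.16 (R 4.3.3) with filterByExpr, glmQLFit and glmQLFTest, with no block, over all 6 libraries. Calls required an adjusted p no higher than 0.05 and a log2 fold change beyond 1 either way. Dividing the size of the log2 fold change by the square root of F gave its standard error. Lengths, overlaps and motifs came from RefSeq's copy of TAIR10.1, in which 24172 of 24509 counted transcripts had the same number, and lengths per kilobase are those of that release. Ratios used unscaled counts and scipy's exact permutation test.

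Libraries with the same replicate number deviated together (correlations of deviations from group means 0.273, 0.280 and 0.236 over 18241 genes), so the numbers were taken to pair the libraries. This pairing comes from the data, and WT replicate 3 is numbered by its title, since its description ends in 6. No pair of replicates differed by less than sampling noise. Whether plants were separate beyond the label of biological replicates is not stated, so p-values measure the spread between these libraries.

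The members and lists were chosen with earlier results of these data known. Genes of other lists were named where called, up to the 3 largest falls and 3 largest rises with a mean of at least 10 CPM, along with *FAD6*, *FAD7*, *FAD8*, *KCR2*, *PTPLA*, *KCS17*, *ROD1*, *WRI1*, *L1L* and *bZIP67* whatever their values. *KCS5*, *AGL62*, *FWA*, *PHE1*, *EPR1*, *CRC*, *NF-YC2*, *SLD2* and *FAD5* were named after their values were seen. So were *CRA1*, *SESA3*, *OLEO1*, *OLEO2*, *ZOU*, *LPEAT2*, *KCS1*, *KCS6*, *KCS10* and *CER2*. Alternatives covered the filter, scaling, test (DESeq2 1.42.0, limma-voom 3.58.1, edgeR's exact test), threshold, replicate block and each library left out.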

Additional observations from a re-analysis of the deposited data

Results flagged for a closer look

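One value from data outside the comparisons lay above the WT libraries. In *atwri1-1* replicate 1, 86.6% of counts were on the row that names no transcript, compared with at most 45.0% in WT. In the same library the 8 members lay between 0.823 and 1.15 times their mean in the other *atwri1-1*-labelled libraries, and both members called lower were called without it as well.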

How the results depend on the processing

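The calls of *LPCAT2* and *PAS2* as lower, 2 of 8 members, and the count of 0 members called higher held under every alternative filter, scaling, test, threshold and omitted library. Without WT replicate 2 *CER10* was called as well, so that 3 members were lower, and 2 were lower under each other alternative that kept a fold minimum. Without the fold minimum the number of members lower was 3, and it was between 2 and 5 when each library was left out, 5 being the count without WT replicate 1. With the replicate block these counts were 2, 0 and 3, and the log2 fold changes of *LPCAT2* and *PAS2* were -1.86 and -2.03. *CER2* and *ZOU*, not called in the main test, were each called in 2 of the 15 settings. Whether the block was among these settings is not given here. For the other genes named here, the block changed no call but those of *SLD2* and *AGL62*. *SLD2* was called lower with it, and the adjusted p of *AGL62* became 0.0544 (edgeR). For the ratios, the mean difference within pairs equals the unpaired one by construction, for example -1.75 for *PAS2* over *KCR1*, and no ratio moved by more than its spread between replicates when a library was left out or 1 count was added. Scaling by library size only moved the median log2 fold change of all genes to 0.17, by more than 0.1, and turned *FAD6* to 0.12 and *FAD7* to 0.061, whereas no member changed sign under any alternative. The lowest count of a member in any library was 90, for *LPCAT1*.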
